A study of Mus musculus with 8 samples.

Results

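Keratin transcripts were counted in eyecups of mice that hold the retinal pigment epithelium (RPE), using QuantSeq libraries, in which each read comes from near the poly(A) end of a transcript. The 10 genes described here are 7 keratins of stratified and ocular surface epithelium (Krt4, Krt5, Krt6a, Krt12, Krt13, Krt14 and Krt15) and 3 keratins of simple epithelium (Krt8, Krt18 and Krt19), out of 53 keratin genes and 31053 gene rows in all. They were chosen by name, with earlier results of this same comparison of genotypes known, so that their own differences between genotypes are given as a description and carry no test.

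All mice were of the strain C57/Bl6 and 11 days old (P11), with no treatment. The groups were 4 libraries from Bbs8+/+ (wild type) animals and 4 from their Bbs8-/- littermates, each library from a separate animal, and the question of the comparison is what changes in the RPE when Bbs8, listed in the annotation as Ttc8 and encoding a subunit of the ciliary BBSome complex, is lost. No Cre driver is named in the labels or methods, and the genotype is that of the whole animal. The labels name the material as RPE eyecups, and by the study's methods for eyecup RNA the cups were homogenized after muscle, fat, optic nerve, retina, lens and cornea had been taken away, so that the RNA came from the RPE together with the other layers left in the cup.

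Keratins are intermediate filament proteins of epithelial cells. A type I keratin always pairs with a type II keratin, and the pair in use follows the kind of epithelium. Krt8 (type II) and Krt18 (type I) form the filaments of single-layered epithelia, the RPE among them. Krt5 (type II) and Krt14 (type I) mark the basal layer of stratified epithelia. Krt4 (type II) and Krt13 (type I) mark the upper layers of moist stratified epithelia such as conjunctiva, Krt12 (type I) marks corneal epithelium, Krt15 (type I) marks basal and limbal cells, and Krt6a (type II) marks mucosal, appendage and activated epithelium. Krt19 (type I) is made by ductal simple epithelia and also by conjunctival and limbal cells. All members lie in the keratin gene clusters, the type I genes on chromosome 11 and the type II genes on chromosome 15, except Krt18, a type I gene that lies beside Krt8. Gene positions below are those of GENCODE M21 on mm10.

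The promoters of 6 members were in the RefSeq table (GRCm38.p6), which gives 250 bases before and 50 after the start. Those of 4 members are printed because Krt5 and Krt13 were counted only in Bbs8+/+ libraries while Krt8 and Krt18, which lie side by side on chromosome 15, were counted in every library. Capitals mark matches, on either strand, to 4 motifs, which were the TATA box (TATAAA), the AP-1 site (TGANTCA), the GC box (GGGCGG) and the AP-2 site (GCCNNNGGC). Krt5 is at chr15:101712856-101713155 and Krt8 at chr15:102004293-102004592, both on the minus strand, Krt13 is at chr11:100121517-100121816 on the minus strand, and Krt18 is at chr15:102027966-102028265 on the plus strand.
Krt5: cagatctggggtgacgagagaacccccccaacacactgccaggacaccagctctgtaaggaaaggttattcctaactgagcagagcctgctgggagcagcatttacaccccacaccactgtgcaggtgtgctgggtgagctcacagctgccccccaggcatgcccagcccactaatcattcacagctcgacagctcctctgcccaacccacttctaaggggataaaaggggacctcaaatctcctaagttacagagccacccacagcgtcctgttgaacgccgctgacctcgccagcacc
Krt13: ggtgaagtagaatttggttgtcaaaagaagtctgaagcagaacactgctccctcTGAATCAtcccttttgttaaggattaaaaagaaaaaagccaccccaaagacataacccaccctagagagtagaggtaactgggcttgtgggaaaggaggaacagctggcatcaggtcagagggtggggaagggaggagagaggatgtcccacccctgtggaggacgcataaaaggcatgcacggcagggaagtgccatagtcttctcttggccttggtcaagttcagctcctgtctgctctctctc
Krt8: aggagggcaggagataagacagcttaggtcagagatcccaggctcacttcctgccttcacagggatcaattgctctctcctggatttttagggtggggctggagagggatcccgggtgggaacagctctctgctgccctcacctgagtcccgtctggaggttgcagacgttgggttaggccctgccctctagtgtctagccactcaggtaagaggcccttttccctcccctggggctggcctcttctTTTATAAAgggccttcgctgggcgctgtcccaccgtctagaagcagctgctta
Krt18: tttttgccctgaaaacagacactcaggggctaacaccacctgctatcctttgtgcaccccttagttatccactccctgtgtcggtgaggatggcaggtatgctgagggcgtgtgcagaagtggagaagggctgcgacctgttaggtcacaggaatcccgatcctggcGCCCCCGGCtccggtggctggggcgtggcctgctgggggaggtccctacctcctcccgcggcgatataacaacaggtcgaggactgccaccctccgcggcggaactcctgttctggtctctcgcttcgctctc
With the first transcribed base as position 1, Krt13 held an AP-1 match at -196, a motif present in 7.81% of 32851 promoters of the same length. Krt18 held an AP-2 match at -83, present in 16.6% of promoters. The capital letters in Krt8 hold 2 overlapping TATAAA matches, starting at -3 and -1 and read on opposite strands, and TATAAA was present in 13.6% of promoters. None of the printed windows held the GC box letters, which 35.7% of promoters hold, and the Krt5 window held none of the 4 motifs. GC content was 57.7% in Krt5, 50.3% in Krt13, 58.0% in Krt8 and 61.3% in Krt18, against a median of 52.7% over all promoters. For Krt13, which has a further start in the table, the upstream window is printed, and the other window held AP-1 matches at -183 and -34. Promoters of Krt12 and Krt14 were also in the table, and those of Krt4, Krt6a, Krt15 and Krt19 were not printed.

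The targeted gene, Ttc8, was counted 34, 50, 39 and 62 times in Bbs8+/+ and 16, 7, 5 and 9 times in Bbs8-/-. Every Bbs8-/- library lay below every Bbs8+/+ library, and Bbs8-/- replicate 1, at 9.70 CPM, stood above the other Bbs8-/- libraries at 2.29 to 4.20 CPM. Ttc8 was at 18.5 ± 2.95 CPM (counts scaled to TMM-normalized library size, mean ± SD, n = 4) in Bbs8+/+ and 4.96 ± 3.26 CPM in Bbs8-/-, a log2 fold change of -1.95 with an adjusted p of 2.739e-06 in the edgeR quasi-likelihood test. Total gene counts ran from 2159295 to 2884983 in Bbs8+/+ and from 1636725 to 2179761 in Bbs8-/-, so that a floor of 3 counts over a whole group stood for 0.305 CPM in Bbs8+/+ and, in Bbs8-/-, for 0.379 CPM. Of 13813 genes tested, 157 were called lower in Bbs8-/- (1.14%) and 152 higher (1.1%) at a false discovery rate (FDR) of 0.05, together 2.24%, and the median log2 fold change was -0.0041.

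The surface keratins were scarce but present in every Bbs8+/+ library and almost absent from the counts of Bbs8-/- libraries. Summed over the 7 genes, the Bbs8+/+ libraries held 35, 38, 44 and 45 counts and the Bbs8-/- libraries 1, 1, 0 and 0. In normalized terms this was 16.6 ± 2.67 CPM against 0.282 ± 0.328 CPM (n = 4 each). The pooled counts were 162 and 2, which, scaled to the library totals, is 65.1-fold lower in Bbs8-/- (95% exact interval 17.7 to 542, covering counting error only). The groups did not overlap. The share of reads outside genes did not overlap either, at 42.1% to 43.4% in Bbs8+/+ and 44.1% to 44.4% in Bbs8-/-, and its part in the keratin values was not tested. In bulk tissue, fewer cells of a type and less RNA per cell cannot be told apart.

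Krt15 (chr11:100131758-100135928, minus strand), the basal and limbal type I keratin, was the only surface member with any count in Bbs8-/-. It was counted 11, 7, 21 and 16 times in Bbs8+/+ and 1, 1, 0 and 0 times in Bbs8-/-. The levels were 5.72 ± 2.97 and 0.282 ± 0.328 CPM, and pooled counts were 22.1-fold lower (5.84 to 187). Within Bbs8+/+ replicate 3 was the highest and replicate 2 the lowest, and even the lowest lay above every Bbs8-/- library. With Krt15 left out, the other surface members summed to 107 counts in Bbs8+/+ and 0 in Bbs8-/-, at least 28.7-fold lower against the floor of 3 counts over the group.

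Krt5 (chr15:101707070-101712898, minus strand), the basal type II keratin, was counted 9, 9, 9 and 1 times in Bbs8+/+ and was at 0 in all 4 Bbs8-/- libraries, at least 7.51-fold lower. Bbs8+/+ replicate 4 stood well under the other 3. Its usual partner Krt14 (chr11:100203162-100207548, minus strand) was at 0 in all 8 libraries, so these data show counts of the basal type II gene without its type I partner. A count of 0 limits Krt14 to the floors given above for uniquely aligned reads only, since reads that aligned to several places were not counted.

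Krt6a (chr15:101689910-101694307, minus strand) was counted 6, 11, 6 and 10 times in Bbs8+/+ and 0 times in each Bbs8-/- library, at least 8.85-fold lower. Its level of 3.30 ± 0.784 CPM varied least, relative to its mean, among the surface members. The neighbouring gene Krt6b, a close copy of Krt6a and not a member, had 6, 2, 3 and 6 counts in Bbs8+/+ and likewise 0 in every Bbs8-/- library, at least 4.56-fold lower. None of the 251 words of 50 bases in the last 300 bases of the Krt6a transcript occurred in the transcripts of another gene, and the same held for Krt6b.

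The mucosal pair Krt4 and Krt13 was counted only in Bbs8+/+. Krt4 (chr15:101918535-101924735, minus strand) had 1, 8, 4 and 6 counts and Krt13 (chr11:100117327-100121566, minus strand) had 3, 3, 4 and 12. Both were at 0 in all Bbs8-/- libraries, at least 5.09-fold lower for Krt4 and at least 5.90-fold lower for Krt13. Krt4 was lowest in Bbs8+/+ replicate 1 and Krt13 highest in Bbs8+/+ replicate 4. Krt12 (chr11:99415666-99422259, minus strand), the corneal keratin, had 5 counts in Bbs8+/+ replicate 1 and 0 in the other 7, at least 1.34-fold lower over the group, so that its value rests on 1 library.

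By type, the type II surface members (Krt4, Krt5 and Krt6a) summed to 80 counts in Bbs8+/+ and 0 in Bbs8-/-, and the type I surface members (Krt12, Krt13, Krt14 and Krt15) to 82 and 2. The levels of both types overlapped in Bbs8+/+, at 8.18 ± 2.25 CPM for type II and 8.39 ± 3.30 CPM for type I. Krt15 was the highest surface member in Bbs8+/+ replicates 1, 3 and 4 and held 55 of the 162 counts, and Krt6a was the highest in replicate 2.

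**Figure D1:**
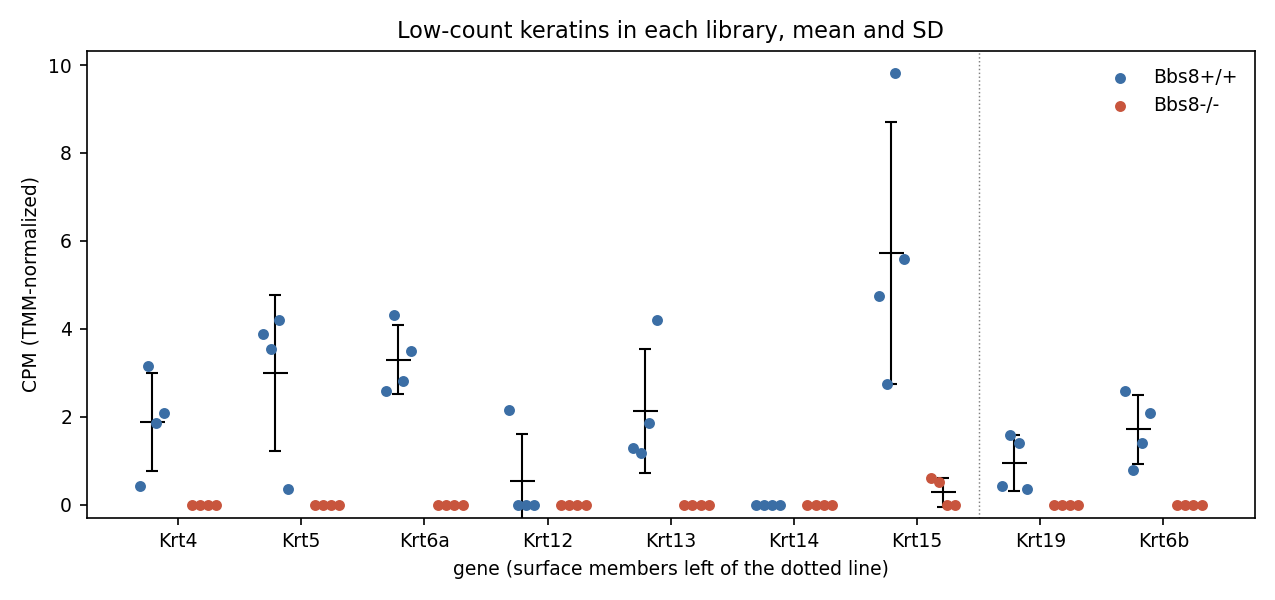
Level of the 7 surface keratins, of Krt19 and of Krt6b in each library, on a linear axis of CPM; each point is 1 library, and the bars give mean and SD (n = 4). All Bbs8-/- points lie at 0 except Krt15 in 2 libraries, and Krt14 is at 0 in both groups.

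The simple keratins were the abundant ones. Krt18 (chr15:102028180-102032027, plus strand) was counted 588, 630, 573 and 772 times in Bbs8+/+ and 525, 594, 659 and 665 times in Bbs8-/-. Its levels were 253.3, 247.7, 267.6 and 269.5 CPM in Bbs8+/+ and 318.3, 310.1, 302.2 and 310.5 CPM in Bbs8-/-. Every Bbs8-/- library lay above every Bbs8+/+ library, with means of 259.5 ± 10.7 and 310.3 ± 6.61 CPM and a log2 fold change of 0.26 (SE 0.07).

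Krt8 (chr15:101996698-102004482, minus strand), the type II partner of Krt18, was counted 113, 125, 110 and 110 times in Bbs8+/+ and 120, 74, 117 and 119 times in Bbs8-/-. The levels, 46.9 ± 5.79 and 55.2 ± 13.97 CPM, overlapped between the groups, with a log2 fold change of 0.23 (SE 0.15). Bbs8-/- replicate 1 was the highest of all 8 libraries at 72.8 CPM, and Bbs8-/- replicate 2 was near the lowest at 38.6 CPM. The log2 fold change of Krt8 ran from 0.08 without Bbs8-/- replicate 1 to 0.36 without Bbs8-/- replicate 2, whereas that of Krt18 ran from 0.24 to 0.28 over all alternatives.

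Per kilobase of the longest transcript, Krt18 was at 181 CPM per kb and Krt8 at 23.9 CPM per kb in Bbs8+/+, and at 216 and 28.2 CPM per kb in Bbs8-/-. Since 3′ reads do not grow in number with transcript length, the share of counts was also taken. Krt8 made up 15.3% ± 1.91 of the counts of the pair in Bbs8+/+ and 14.98% ± 3.08 in Bbs8-/- (n = 4 each), and the ranges overlapped, 12.5% to 16.6% and 11.1% to 18.6%. On the per-kilobase scale the other members were far lower in Bbs8+/+, with Krt15 at 3.37, Krt6a at 1.39, Krt5 at 1.36, Krt13 at 1.29, Krt4 at 0.884, Krt19 at 0.596 and Krt12 at 0.291 CPM per kb. The values of Krt6a, Krt5, Krt13 and Krt4, neighbours in that order, did not differ beyond their spread.

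Krt19 (chr11:100140810-100148665, minus strand), grouped by name with the simple keratins, did not follow Krt8 and Krt18. It was counted 1, 4, 3 and 1 times in Bbs8+/+ and 0 times in every Bbs8-/- library, at least 2.41-fold lower, which is the pattern of the surface members. Krt8 and Krt18 accounted for 3021 of the 3030 counts of the simple keratins in Bbs8+/+ and for all 2873 in Bbs8-/-. The summed simple keratins were therefore a measure of these genes, and stood at 307 ± 9.57 CPM in Bbs8+/+ and 365 ± 18.5 CPM in Bbs8-/-, with no overlap.

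**Figure D2:**
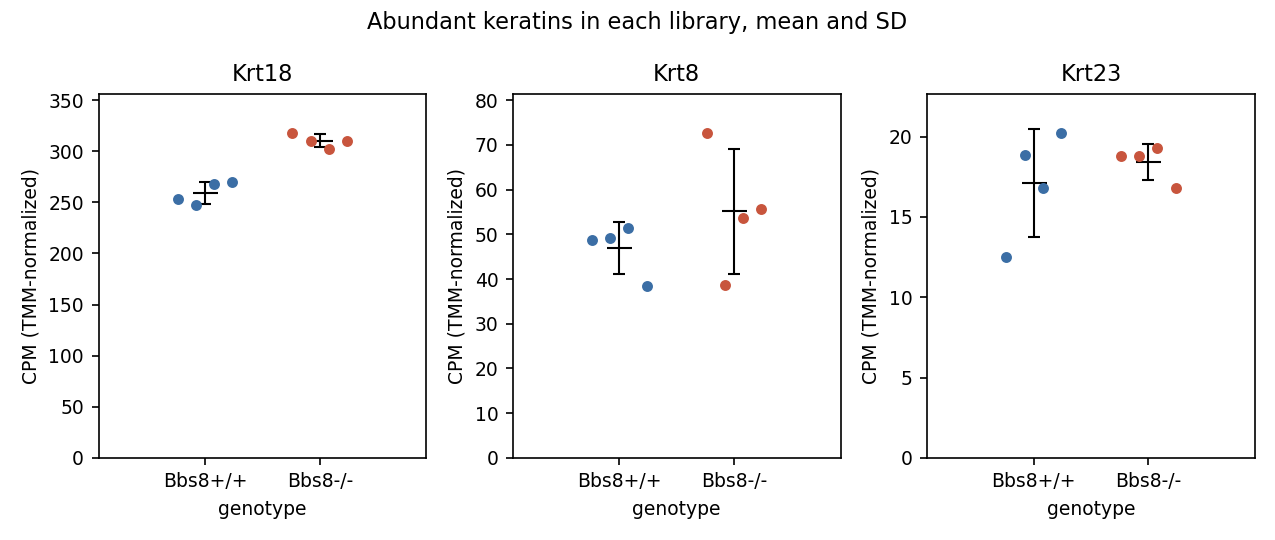
Level of Krt18, Krt8 and Krt23 in each library, each on its own linear CPM axis from 0; points are libraries and bars are mean and SD (n = 4). The groups separate for Krt18 (247.7 to 269.5 against 302.2 to 318.3 CPM) and overlap for Krt8 and Krt23.

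As a share of all keratin counts in a library, the surface members made up 4.62% ± 0.603 in Bbs8+/+ (4.27% to 5.52%) and 0.0707% ± 0.0816 in Bbs8-/- (0 to 0.143%). The simple members made up 86.0% ± 2.09 and 92.6% ± 1.17, and the other keratins the rest. These shares rest on 791 to 1055 keratin counts per Bbs8+/+ library and 702 to 850 per Bbs8-/- library.

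Only 5 of the 10 members passed the filter for the fit across all genes, which asked for at least 1 CPM in at least 4 libraries. Krt6a, Krt13 and Krt15 passed it only through the Bbs8+/+ libraries. Their log2 fold changes were -5.90 (SE 1.29), -5.31 (SE 1.43) and -4.20 (SE 0.83), values that for Krt6a and Krt13 depend on the prior count because the Bbs8-/- libraries were at 0. These 3 were on the lower side of the FDR threshold, against 1.14% of all genes tested, and Krt18 on the higher side, against 1.1%. Nothing is read from these counts, since the members were picked from this comparison. Krt13 was no longer past the threshold without Bbs8+/+ replicate 4 or without any single Bbs8-/- library, and Krt18 was not without Bbs8+/+ replicate 1 or 2 or without Bbs8-/- replicate 1.

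A wider view of the same pattern used all genes. Of 13532 genes with at least 1 count in every Bbs8+/+ library, 16 were at 0 in every Bbs8-/- library (0.118%). Of these 16, 6 were keratins: the members Krt4, Krt5, Krt6a, Krt13 and Krt19, and Krt6b. The members were chosen with this comparison known, so nothing is read from their number, and only Krt6b is not a member. The opposite pattern, counted in every Bbs8-/- library and at 0 in every Bbs8+/+ library, was met by 17 of 13409 genes (0.127%), none of them a keratin.

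The remaining 43 keratin genes were mostly silent, with 28 at 0 in all 8 libraries, Krt16 and Krt17 among them. Summed, these 43 genes stood at 33.7 ± 8.80 CPM in Bbs8+/+ and 29.1 ± 5.66 CPM in Bbs8-/-, overlapping. Of the 5 that were tested, 0 were called in the edgeR quasi-likelihood test, and 0 had an unadjusted p under 0.05. DESeq2, which withholds an adjusted p at low counts, also called 0. Krt23, a type I keratin, was the most abundant, with 29, 48, 36 and 58 counts in Bbs8+/+ and 31, 36, 42 and 36 in Bbs8-/-, and a log2 fold change of 0.10 (SE 0.23, edgeR adjusted p 0.918). Krt10, the type I keratin of upper epidermis, had 5, 13, 7 and 27 counts against 6, 2, 17 and 6 (log2 fold change -0.39, SE 0.49, edgeR adjusted p 0.817), and turned to 0.13 without Bbs8+/+ replicate 4. Its epidermal partner Krt1 gave -0.68 (SE 0.77, edgeR adjusted p 0.794), with -1.65 without Bbs8-/- replicate 1 and -0.37 without Bbs8-/- replicate 3. Krt80 had 7, 2, 9 and 8 counts against 2, 1, 1 and 4 (log2 fold change -1.35, edgeR adjusted p 0.480). Krt222, a keratin-related gene, gave 0.41 (edgeR adjusted p 0.856), with 0.08 without Bbs8-/- replicate 1 and 0.65 without Bbs8+/+ replicate 2. Krt1 and Krt10, unlike most surface members, were thus counted in both groups.

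Proteins that bind or organise keratin filaments were examined next. DESeq2, which withholds an adjusted p at low counts, called none of them. Of 15 genes listed, among them plakins, desmosomal plaque proteins, 14-3-3 proteins and chaperones, 14 were tested and 0 were called by edgeR. By the same test 2 had an unadjusted p under 0.05. The median log2 fold change of the list was -0.02, against -0.0041 over all genes. The most abundant, Ywhae, a 14-3-3 protein, gave 0.06 (SE 0.06), and Dst, the plakin that anchors keratin at hemidesmosomes, gave 0.07 (SE 0.07). The 2 with a low unadjusted p were Evpl, envoplakin, an envelope protein of stratified epithelium, with 8, 3, 7 and 7 counts against 2, 0, 2 and 1 (log2 fold change -1.92, edgeR adjusted p 0.299), and Hspb1, a small heat shock protein, at 34.2 ± 6.78 and 45.0 ± 9.59 CPM (0.38, edgeR adjusted p 0.272). These were named after their values were seen.

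Among 16 genes for other intermediate filaments, 15 were tested and 2 were called, against 2.24% of all genes. In edgeR 6 had an unadjusted p under 0.05, the 2 called genes among them. The median log2 fold change was 0.30. Gfap, the filament of glia, rose from 2.62 ± 1.05 to 14.4 ± 2.04 CPM (log2 fold change 2.42, SE 0.38, edgeR adjusted p 1.008e-06). Nes, the filament of progenitor cells, was lower in Bbs8-/- at 29.8 ± 5.70 CPM than in Bbs8+/+ at 45.5 ± 5.49 CPM (-0.61, SE 0.17, edgeR adjusted p 0.0187). The Nes call was lost without Bbs8+/+ replicate 1 or 4 and without Bbs8-/- replicate 2 or 3.

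**Figure D3:**
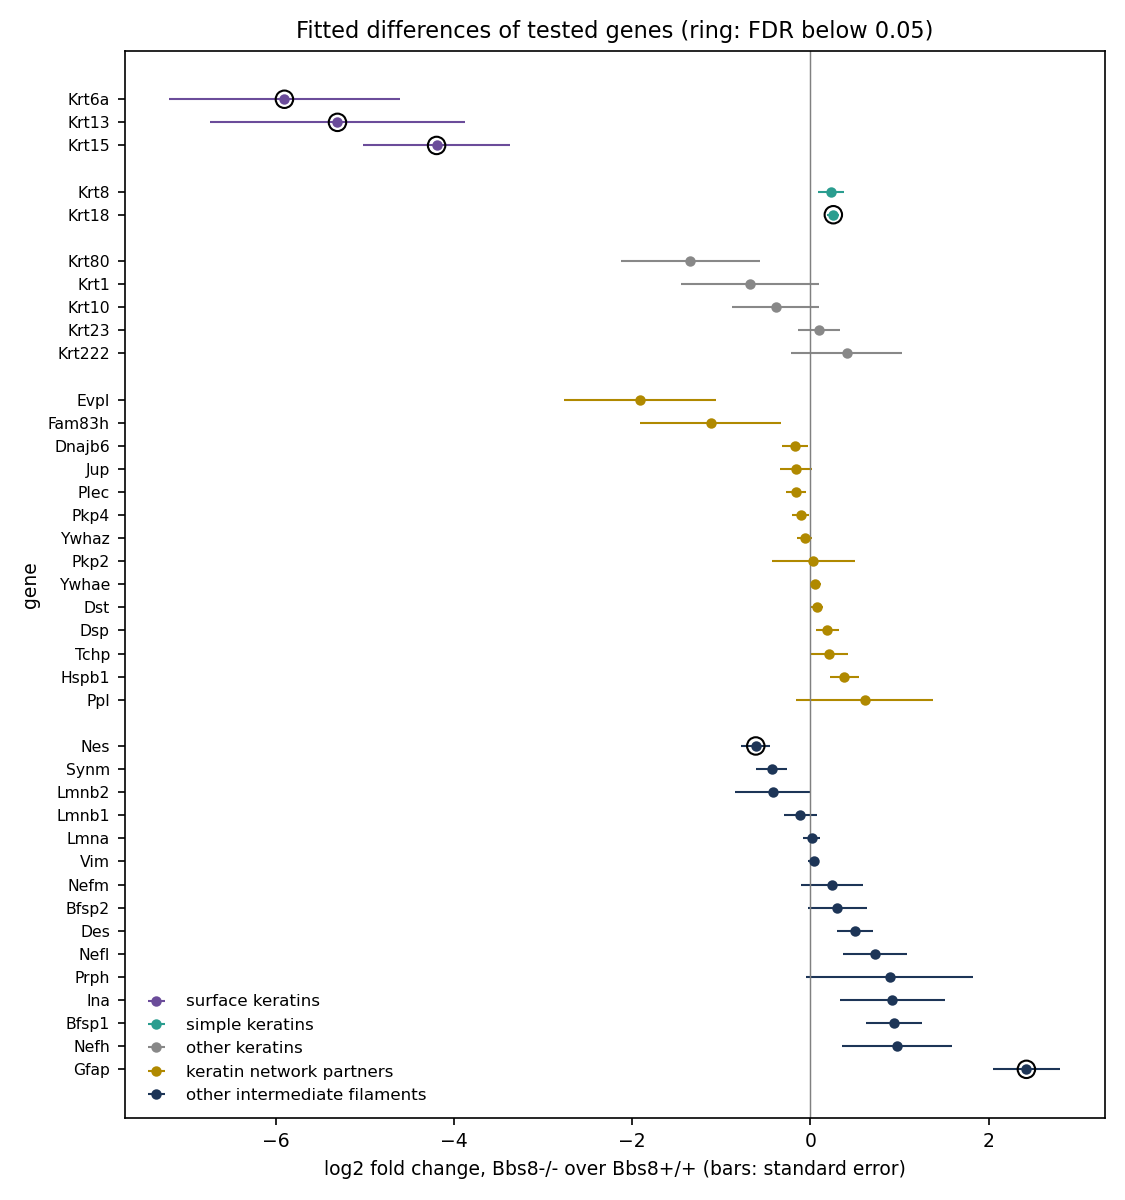
Log2 fold change (Bbs8-/- over Bbs8+/+) with its standard error for every tested keratin, keratin partner and other intermediate filament gene; rings mark an FDR under 0.05 in the edgeR quasi-likelihood test. Krt6a, Krt13 and Krt15 lie between -5.90 and -4.20, Krt8 and Krt18 at 0.23 and 0.26. Of the keratins and partners, Krt6a, Krt13, Krt15 and Krt18 are ringed. These are members picked from this comparison, so their rings are a description and carry no test.

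Other genes of ocular surface epithelium were read beside the surface keratins. Of 29 listed genes, 5 were at 0 in all libraries (Psca, Grhl3, Cldn4, Sprr1a and Sprr1b), and 8 were tested. None was called by edgeR, and 2 had an unadjusted p under 0.05. DESeq2 called none either, but it withholds an adjusted p at low counts, where most of these genes lay. The median log2 fold change was 0.11, with no stable sign. It was -0.17 under the stricter filter (filterByExpr). Without Bbs8+/+ replicate 2, Bbs8+/+ replicate 4 and Bbs8-/- replicate 3 it was -0.04, -0.14 and -0.10. The summed level ran from 121 to 131 CPM in Bbs8+/+ and from 97.1 to 127 CPM in Bbs8-/-, overlapping, where the summed surface keratins did not overlap. Aldh3a1, the corneal crystallin and aldehyde dehydrogenase, was the most abundant at 43.0 ± 3.42 and 30.4 ± 4.69 CPM (log2 fold change -0.51, edgeR adjusted p 0.0805). Perp, a desmosomal protein, stood at 38.3 ± 4.10 and 42.6 ± 7.84 CPM. Gjb2, a connexin, stood at 22.3 ± 2.85 and 15.2 ± 3.595 CPM (-0.56, edgeR adjusted p 0.234). These 3 genes held most of the sum, which therefore says little of listed genes at the level of the surface keratins. Among the scarce genes, 5 were counted only in Bbs8+/+, among them Pkp1, Lypd3, S100a14 and Epcam with 1 to 3 counts each, and 2, Serpinb5 and Aqp5 with 1 count each, only in Bbs8-/-. These were named after their values were seen.

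The defining genes of stratified epithelium were themselves near 0. Trp63, the transcription factor of its basal cells, had 2, 2, 3 and 0 counts in Bbs8+/+ and 1, 1, 3 and 1 in Bbs8-/-. Elf3, an epithelial transcription factor, had 5, 3, 2 and 0 against 0, 0, 1 and 0. Dsg3, a desmosomal cadherin of the basal layers, had 1 count in Bbs8+/+ and 2 in Bbs8-/-. These 3 were named after their values were seen. Counts of Trp63 and Dsg3 were thus low in both groups, while those of Elf3 were lower in Bbs8-/-. Counts this low cannot show whether the groups were equal. Whether the amount of surface epithelium in the eyecups had a part in the keratin difference was not tested.

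Markers of other tissues moved as follows. The epidermis list gave 20.7 ± 6.94 and 18.7 ± 6.43 CPM, overlapping, and Lor, Flg, Dsg1a and Krt77 were at 0. By edgeR 0 of 5 tested genes were called and 0 had an unadjusted p under 0.05. DESeq2 withheld an adjusted p for Sbsn, Krt1 and Krt10 at their low counts, so its lack of calls says nothing of them. Its most abundant gene was Sbsn, at 8.10 ± 4.04 and 6.57 ± 3.89 CPM. In the list of goblet cell and gland genes, Muc5ac, Agr2 and Spdef were at 0, and the only gene tested, Car6, a secreted carbonic anhydrase, was called lower, at 155.6 ± 9.11 CPM in Bbs8+/+ and 118.4 ± 7.87 CPM in Bbs8-/- (log2 fold change -0.40, edgeR adjusted p 0.00270). The lens list summed to 47.5 ± 6.08 CPM in Bbs8+/+ and to 215 ± 12.5 CPM in Bbs8-/- with no overlap (43.3 to 56.5 CPM against 201 to 229.7 CPM), and 7 of its 10 tested genes were called higher, Cryaa, Cryba1, Crybb1, Cryba2 and Crybb3 with log2 fold changes of 3.00, 2.74, 3.74, 2.75 and 1.44 among them. The called genes were all crystallins, while the lens fibre membrane proteins Mip (8.52 ± 2.08 and 10.5 ± 3.41 CPM) and Lim2 (6.23 ± 2.87 and 8.04 ± 2.11 CPM), named after their values were seen, were tested and not called. Crystallin RNA was thus higher in the libraries in which surface keratins were lower. The part of the crystallin signal in the keratin values was not tested.

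The 13 genes of the RPE list summed to 18320 ± 486 CPM in Bbs8+/+ and 19090 ± 169 CPM in Bbs8-/-, so that the labelled tissue was present in both groups. None was called by edgeR, 6 had an unadjusted p under 0.05, and DESeq2 called 1. Of the 13, 8 had a log2 fold change above 0 and 5 below. The most abundant, Ttr (transthyretin, which carries thyroxine and binds the retinol-binding protein), gave 0.09. It stood at 10940 ± 513 CPM in Bbs8+/+ and 11660 ± 62.3 CPM in Bbs8-/-. Ttr thus held most of the RPE sum and most of its difference between the groups. Rgr, an opsin of the RPE, gave 0.05. Named after their values were seen, Stra6, the retinol transporter that DESeq2 called, gave 0.23, Kcnj13, a potassium channel, gave -0.28 and Rpe65, the isomerase of the visual cycle, gave -0.13. Leaving out Bbs8-/- replicate 2 brought Rpe65 and Kcnj13 past the edgeR threshold, and leaving out Bbs8+/+ replicate 3 brought Rpe65 and Ttr. The median log2 fold change of the list was 0.09, against 0.26 for Krt18. Genes of endothelium and mesothelium summed to 661 ± 17.4 and 699 ± 29.0 CPM, with Upk3b, a uroplakin of mesothelium, called higher (log2 fold change 0.48, edgeR adjusted p 0.0106). That call was lost without replicate 2 or 4 of either genotype.

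**Figure D4:**
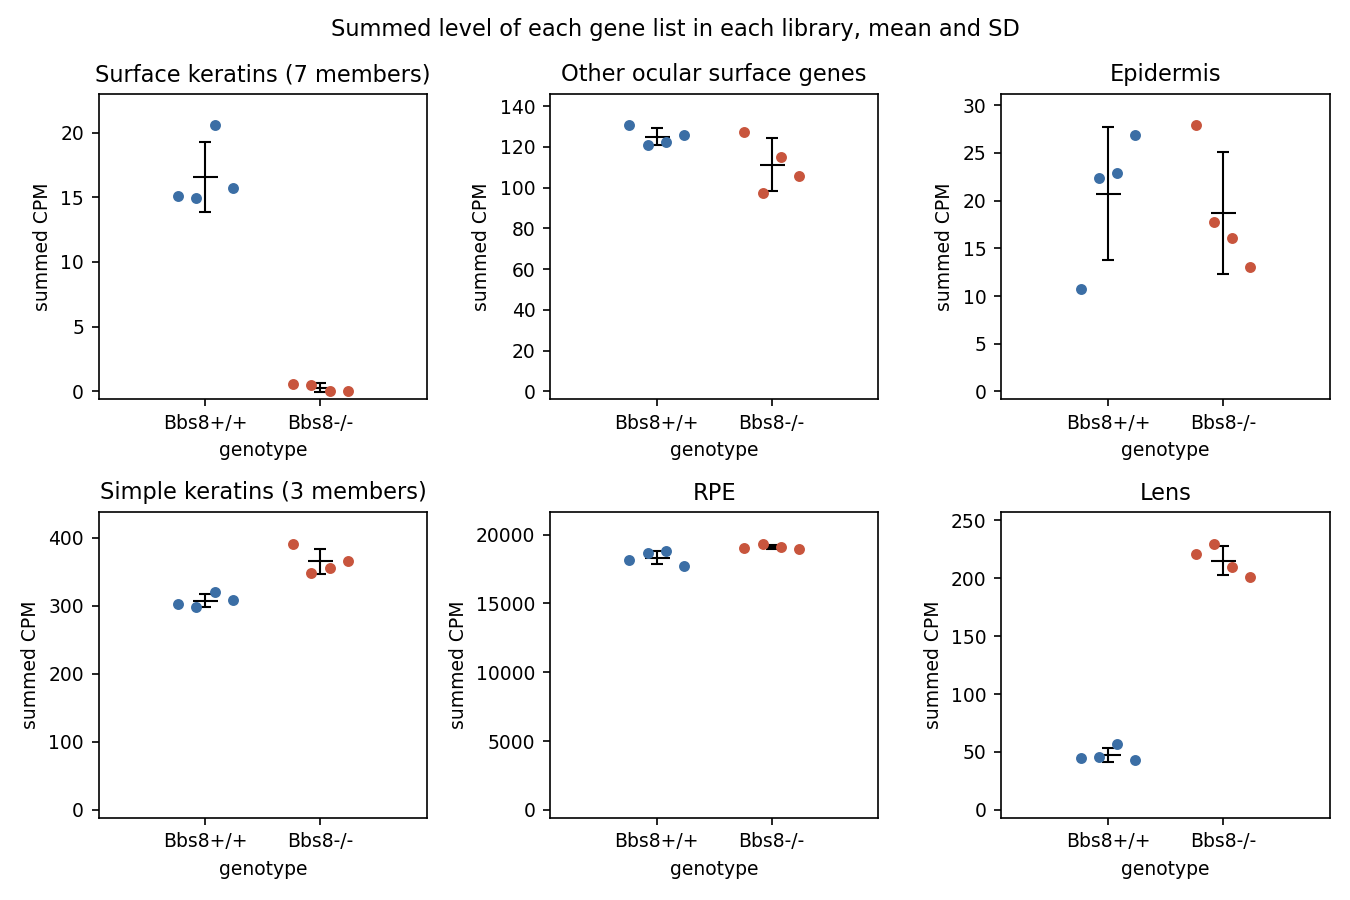
Summed CPM of 6 gene lists in each library, each on its own linear axis that includes 0; points are libraries and bars are mean and SD (n = 4). Surface keratins (14.9 to 20.6 against 0 to 0.606 CPM), simple keratins, RPE and lens genes separate the genotypes, while other ocular surface genes and epidermis genes overlap. Most of the RPE sum is Ttr.

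Krt8 and Krt18 lie 23.7 kb apart. Within 100 kb of them 3 other genes were tested, chosen for their position: Eif4b at -0.02 (edgeR adjusted p 0.966), Tns2 at -0.86 (edgeR adjusted p 0.0497) and Spryd3 at 0.33 (edgeR adjusted p 0.277). Tns2 was thus just past the threshold, in the direction opposite to Krt18, lost the call in 11 of 15 alternatives, among them leaving out replicate 1, 2 or 4 of Bbs8+/+ or replicate 1, 3 or 4 of Bbs8-/-, and the other neighbours were not called.

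The genes whose log2 CPM most resembled that of Krt18 over the 8 libraries, among 9033 genes with a mean of at least 10 CPM, were Hist1h1e (Pearson r 0.969), Crygb (0.969), Krtcap2 (0.967), Nrd1 (0.964) and Uaca (0.961). Spearman's rho was 0.952, 0.857, 0.881, 0.976 and 0.929 in the same order. These values are a description: all genes share the libraries and their depth, and Krt18 itself separates the genotypes. Krt8, its filament partner, had r = 0.357 and ranked 2353 of the 9033.

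Some limits touch single members. Exons of Krt5, Krt6a, Krt8 and Krt12 overlap a gene annotated on the opposite strand, and with the strand setting of the counting not stated, reads of such partners cannot be told apart. The last 300 bases of each member's transcript held 0 of 251 words of 50 bases that also occurred in another gene's transcripts, and matches elsewhere in the genome were not tested.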

How the data were processed

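The deposited files held whole-number counts of uniquely aligned reads per gene, 1 file per library, made by the authors by trimming with BBDuk, alignment with STAR to mm10 and counting with htseq-count on Ensembl gene models. The strand setting and molecular identifiers were not given in the sources used here. Summary lines for reads outside genes were left out of library sizes (as a share of gene, ambiguous and outside reads, 42.1% to 43.4% in Bbs8+/+ and 44.1% to 44.4% in Bbs8-/-). Symbols and positions came from GENCODE M21 on the same assembly, in which 30934 of 31053 identifiers were found.

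Differences between genotypes were fitted in edgeR 4.0.16 (R 4.3.3) for genes that reached 1 CPM in 4 or more libraries, with its two-sided quasi-likelihood test, TMM normalization, genotype as the only factor and Benjamini-Hochberg adjustment over all 13813 tested genes. The design followed the study's methods. The study's filter on multi-mapped reads was not applied. Fold bounds against groups at 0 used 3 counts over the group. Ratio intervals were 95% exact conditional intervals, and they and floors cover counting error only. The fit was checked on simulated data. Named genes were all members, Ttc8, every tested keratin, up to 5 called genes per list or else its 2 most abundant, and the 5 genes most like Krt18. One listed gene is not reported here. Members and lists were chosen with earlier results of these data known. Alternatives were DESeq2 1.42.0, other filters, normalizations and thresholds, a replicate block and leaving out each library.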

Additional observations from a re-analysis of the deposited data

Results flagged for a closer look

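Of 88 groups of 4 libraries examined, 4 held a library farther from the others than Dixon's 95% critical value allows, where chance gives about 4.4. The summed surface keratins reached 20.6 CPM in Bbs8+/+ replicate 3, against 14.9 to 15.7 CPM in the other 3. Krt12 was at 2.15 CPM in Bbs8+/+ replicate 1 and at 0 in the others. Krt1 was at 3.64 CPM in Bbs8-/- replicate 1, against 0.459 to 0.934 CPM in the others. Aldh3a1 was at 37.9 CPM in Bbs8+/+ replicate 1, below the 44.0 to 45.2 CPM of the others.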

How the results depend on the processing

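Of 11 genes named as called that are not members, 8 kept the call in every alternative that gave a value, and 0 reversed. Surface keratins are limited by depth: only 162 counts lay behind the Bbs8+/+ sum, and 3 of 5 tested members had no adjusted p in DESeq2, which withholds it for low counts, so that members called lower were 0 there, and 0 with filterByExpr, which left 2 members in the test. Without a filter 9 members were tested and 4 were called lower, among 158 genes called lower in all. Nothing is read from the numbers of members called, since the members were picked from this comparison. At FDR 0.01, 81 genes were called lower and 93 higher, members called higher and endothelium and mesothelium genes fell to 0, and other intermediate filament genes to 1. DESeq2 called 1 other intermediate filament gene, 1 RPE gene and 2 lens genes (8 lens genes had no adjusted p). RPE genes called were also 1 with filterByExpr and 1 without Gm42418 and mitochondrial genes. Leaving out 1 library gave 0 to 1 members called higher, 1 to 2 other intermediate filament genes, 0 to 2 RPE genes (2 without Bbs8+/+ replicate 3 or Bbs8-/- replicate 2), 0 to 1 endothelium and mesothelium genes and a log2 ratio of summed surface keratins of -6.57 to -5.46. Krt10 ran from -1.03 to 0.129, reversed without Bbs8+/+ replicate 4, and Krt23 from -0.0253, reversed without Bbs8+/+ replicate 1, to 0.192. Eif4b ran from -0.0645 to 0.0268. The causes were not tested beyond what is stated. The numbers of the libraries did not pair them: deviations of same-numbered libraries correlated at 0.02, 0.003, -0.05 and -0.056 over 6626 genes. With the replicate block 129 genes were called lower and 134 higher, 2 members lower (Krt13, at -5.31, lost its call) and 1 higher.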
